A study of Mus musculus with 22 samples.

Results

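Starved NIH/3T3 cells of an E2F1 line were compared with starved NIH/3T3 cells of an empty vector line, before doxycycline was given to either. The 4 libraries were those labelled 0 h, 2 of each line, out of 22 RNA libraries in the study. Of the 11208 genes in the deposited table of normalized counts, the 10831 on autosomes were examined. The comparison asks how far the 2 lines already differed at the time from which the induction of E2F1 is counted.

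NIH/3T3 is an established line of mouse embryonic fibroblasts. Both lines carry a stably integrated construct for doxycycline-inducible expression, with E2F1 in one line and no insert in the other, here called the E2F1 line and the EV line. The labels do not say whether a line is 1 clone or a pool, from which species the E2F1 sequence came, or which promoter drives it. All cells were kept for 48 h in 0.25% serum, which brings fibroblasts to a resting state. The libraries at 0 h were collected at that point. The other 18 libraries came 2, 6 and 12 h after 500 ng/ml doxycycline in either line, or after 10% serum in the EV line, with 2 in each group. Nothing in the labels says that replicates were separate cultures, so p-values measure only the spread between these libraries, which may be technical.

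E2F transcription factors bind the promoters of genes for DNA replication and for entry into S phase. In resting cells the retinoblastoma family of pocket proteins holds these genes down, and cyclin-dependent kinases release them when growth factors return. E2F1 is an activating member of the family, and its raised expression is known to push resting fibroblasts into S phase.

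The 4 libraries had totals of 34043429 and 34201309 normalized counts in the E2F1 line and 34680926 and 35600629 in the EV line. From the steps between low values, these correspond to about 39400000, 37000000, 39300000 and 32200000 reads on the listed genes. Replicate spread was read only over genes of higher counts, 6543 in the E2F1 line and 6439 in the EV line. There replicates differed by a median absolute log2 value of 0.0936 in the E2F1 line and 0.123 in the EV line. These were 3.38 and 4.43 times what counting noise gives. Of 20 fibroblast markers 18 were in the table, all expressed, and their summed level was 1202471 and 1211786 in the E2F1 line and 1345277 and 1276394 in the EV line. None of the 12 epithelial or 10 endothelial markers was in the table, whose lowest gene mean is 99.6. EV replicate 1 had lower levels of cell cycle genes than the other 3 libraries, so results on these genes are given with and without it. Of markers of other cell types, the table held 2 haematopoietic genes (Cd14 and Csf1r), 3 neural genes (Nes, Tubb3 and Map2) and 1 muscle gene (Tnnt2).

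The libraries at 2 h stood apart in some of the genes that separate the lines. The Y-linked gene Ddx3y, an RNA helicase, had 580 and 521 normalized counts in the starved E2F1 libraries and 9 and 4 in the starved EV libraries. EV libraries taken at 2 h had 103 and 71 with doxycycline and 132 and 170 with serum, and E2F1 libraries at 2 h of doxycycline had 329 and 316. For this gene the 2 h libraries of each line thus lay between the lines. Its values between the lines were not confined to 2 h. At 6 h the E2F1 libraries had 415 and 435, and the EV libraries 31 and 18 with doxycycline and 48 and 35 with serum. Positions of the named autosomal genes were read as the share of the way from the EV to the E2F1 level in normalized counts at 0 h. For the 15 furthest above the EV line, the EV libraries at 2 h of doxycycline lay a median of 16.6% of the way (0.983% to 53.5%, all 15 above the EV level). Serum at 2 h gave 12.6% (-3.06% to 510%), and the E2F1 libraries at 2 h lay at 82.3% (33% to 128%). For the 15 furthest below, the EV libraries at 2 h of doxycycline lay at 37.7% (-34.4% to 87.4%, with 12 of 15 moved toward the E2F1 level), and serum gave 70.2% (-1030% to 142%). The E2F1 libraries at 2 h lay at 101% (71.9% to 123%) for these genes, which is the E2F1 level and not a place between the lines. At 12 h of doxycycline the EV medians were 0.723% for the higher and 6% for the lower genes. What this means for the 2 h values was not tested, and 0 h counts are given below also without those libraries.

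At 0 h the lines differed in 1645 of 10831 autosomal genes, 15.2% of those tested. In the E2F1 line 975 genes (9.00%) were higher and 670 (6.19%) lower, at a Benjamini-Hochberg adjusted p under 0.05 from a limma model of log2(normalized count + 1) over all 22 libraries. Most differences were small. The median size was 0.48 on the log2 scale for the higher genes and 0.46 for the lower, and 52.4% and 56.7% were under 0.5. At least a 2-fold difference was seen in 145 higher and 59 lower genes, at least 4-fold in 42 and 7, and at least 8-fold in 15 and 2. The 2 libraries of one line were both above the 2 of the other in 974 of the 975 higher genes and in all 670 lower genes. This largely follows from the call, which rests on the same libraries. Over all autosomal genes, both E2F1 libraries were above both EV libraries in 30.3% and below them in 25.8%. The median over all autosomal genes was 0.02.

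These counts changed when single libraries were left out, which also lowers the power of the test. They were 666 without E2F1 replicate 1, 829 without E2F1 replicate 2, 929 without EV replicate 1 and 1205 without EV replicate 2. Without all 2 h libraries 1248 genes were called, 738 higher and 510 lower. The share of higher genes among the calls was 59.3% with the deposited scaling, 50.8% after quantile normalization (973 higher, 944 lower) and 72.2% after scaling to equal totals (1312 higher, 505 lower). The balance of higher and lower genes therefore followed the scaling.

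**Figure D1:**
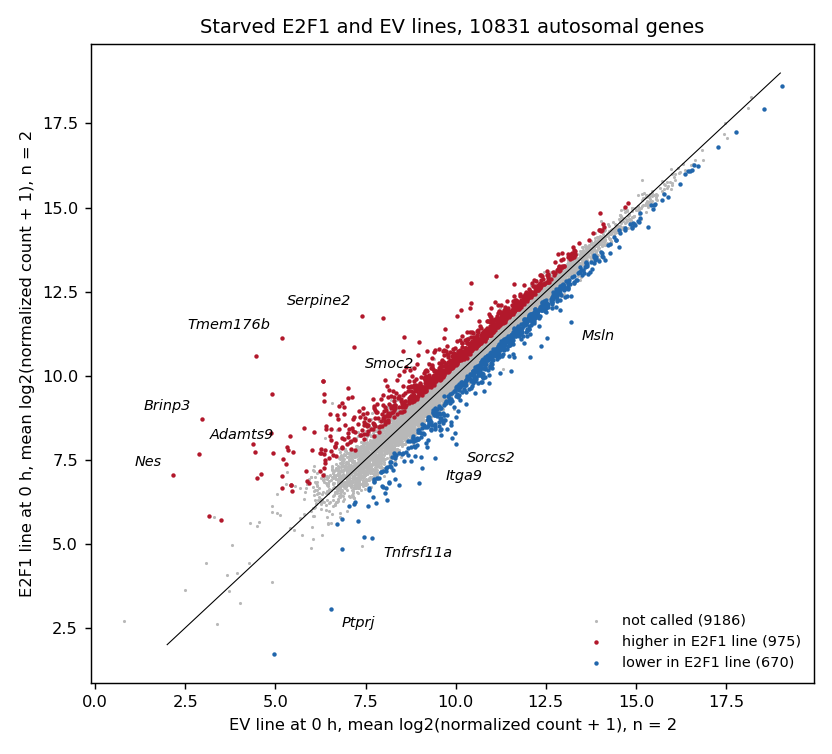
Mean log2(normalized count + 1) of each of 10831 autosomal genes in the starved EV line (x axis, n = 2) and the starved E2F1 line (y axis, n = 2), with called genes coloured and the line of equality drawn. The 975 higher genes reach further from the line of equality than the 670 lower genes.

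E2f1 itself, on chromosome 2, 154559407 to 154569892, was at 1703 and 1637 in the E2F1 line and 1635 and 1655 in the EV line (normalized counts). The groups overlapped, and the difference did not pass the test (log2 difference 0.02, SE 0.11, adjusted p = 0.925). This checks the mouse gene only, since a transcript from a construct of another sequence need not be counted there. E2f3, another activating E2F, was at 1076 and 956 against 742 and 854 and passed (log2 difference 0.35, SE 0.11, adjusted p = 0.0401), but not without E2F1 replicate 1 (adjusted p = 0.27), E2F1 replicate 2 (0.0575) or EV replicate 1 (0.267). E2f2 (log2 difference 0.48) and the pocket protein genes Rb1 (-0.33), Rbl1 (0.59) and Rbl2 (0.09) did not pass. Without EV replicate 2, the value for Rbl2 was -0.11.

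E2F target genes of the G1/S transition were higher in the starved E2F1 line. Of 74 autosomal members 34 were called higher and none lower, and the median log2 difference was 0.53 against 0.02 over all autosomal genes. By value 73 of the 74 were above 0, and in 53 (71.6%) both E2F1 libraries were above both EV libraries, as in 30.3% of all autosomal genes. Beside the background of 9.00% called higher, 45.9% of the list was called, and the number called fell from 34 to 4 when EV replicate 1 was left out. In bulk RNA, fewer cells of a kind and less RNA per cell cannot be told apart. The members include the helicase, loading and polymerase genes of DNA replication.

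Mcm6, a subunit of the replicative helicase on chromosome 1, 128331590 to 128359664, was at 4817 and 4588 in the E2F1 line and 1841 and 2596 in the EV line. All E2F1 values were above both EV values, which the rule for naming genes required (log2 difference 1.10, SE 0.15, adjusted p = 0.000136 by limma). Mcm2, of the same helicase, was at 5042 and 4562 against 2374 and 3123 (log2 difference 0.82, SE 0.11, adjusted p = 0.000143). Cdc6, which loads that helicase onto origins, was at 609 and 538 against 226 and 351 (log2 difference 1.02, SE 0.21, adjusted p = 0.00383). Hells, a chromatin remodeler of replicating cells, was at 2833 and 2265 against 1074 and 1715 (log2 difference 0.90, SE 0.19, adjusted p = 0.00405). Over the alternatives the adjusted p of Hells reached 0.0786. In each of these genes the EV library nearer to the E2F1 line was replicate 2.

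In further members EV replicate 1 was again the lowest of the 4 libraries. E2f8, a repressing E2F that is itself an E2F target, was at 576 and 508 against 171 and 397 (log2 difference 1.05). Chaf1b, a subunit of the factor that places histones on new DNA, was at 656 and 630 against 227 and 497 (0.93), and Mybl2, a partner of the complex that switches on G2/M genes, was at 470 and 507 against 176 and 382 (0.91), with an adjusted p of 0.0252 that reached 0.373 over the alternatives. The G1/S cyclins Ccne1 (666 and 544 against 281 and 445) and Ccne2 (546 and 361 against 211 and 323) were also called, with adjusted p = 0.0252 and 0.0488 by limma. Mcm3 (3274 and 2985 against 1483 and 2453), of the helicase, and Pcna (3794 and 3458 against 1939 and 3272), the sliding clamp of the polymerases, passed by limma with adjusted p = 0.00819 and 0.0362. Pcna has near-identical processed copies in the genome, so its count is uncertain to that extent. Rrm2, a subunit of ribonucleotide reductase, was at 1617 and 1341 against 785 and 1406 and did not pass (adjusted p = 0.195 by limma).

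This result rested on EV replicate 1. Against the mean of the 4 libraries, the median member of the list stood at 0.33 and 0.18 (log2) in the 2 E2F1 libraries, at -0.54 in EV replicate 1 and at 0.03 in EV replicate 2. The number of members called was 4 without EV replicate 1 and 47 without EV replicate 2. It was 7 without E2F1 replicate 1 and 19 without E2F1 replicate 2, and 26 without all 2 h libraries. The median difference was 0.24 without EV replicate 1, with 62 of 74 members above 0. Without that library Mcm6 kept its call, while the adjusted p by limma was 0.0704 for Cdc6, 0.362 for E2f8, 0.257 for Chaf1b, 0.28 for Ccne1, 0.362 for Ccne2, 0.145 for Mcm3 and 0.528 for Pcna. Without E2F1 replicate 1 it was 0.148 for E2f8, 0.0937 for Chaf1b, 0.191 for Ccne1, 0.385 for Ccne2, 0.0783 for Mcm3 and 0.198 for Pcna. Without E2F1 replicate 2 it was 0.0753 for E2f8, 0.0637 for Chaf1b and 0.0823 for Pcna.

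Few genes of the G2/M phase were called. Of 41 autosomal members 1 was called higher, Nuf2, a kinetochore subunit at 1302 and 1242 against 509 and 834 (log2 difference 0.96), and none lower, beside a background of 9.00% higher and 6.19% lower. All 41 were above 0 with a median of 0.33, but the median was -0.16 without EV replicate 1. Against the mean of the 4 libraries the list stood at 0.16 and 0.15 in the E2F1 line, at -0.59 in EV replicate 1 and at 0.29 in EV replicate 2. Cdk1, the mitotic kinase, was at 2866 and 2348 against 1882 and 3412, and Mki67, a marker of cycling cells, at 7889 and 8476 against 5675 and 10406. In both, the highest and the lowest library were the 2 EV replicates. The 2 EV replicates thus lay further apart than either E2F1 replicate lay from EV replicate 2. Nuf2 lost its call without E2F1 replicate 1 (adjusted p = 0.116), E2F1 replicate 2 (0.0812) or EV replicate 1 (0.233).

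**Figure D2:**
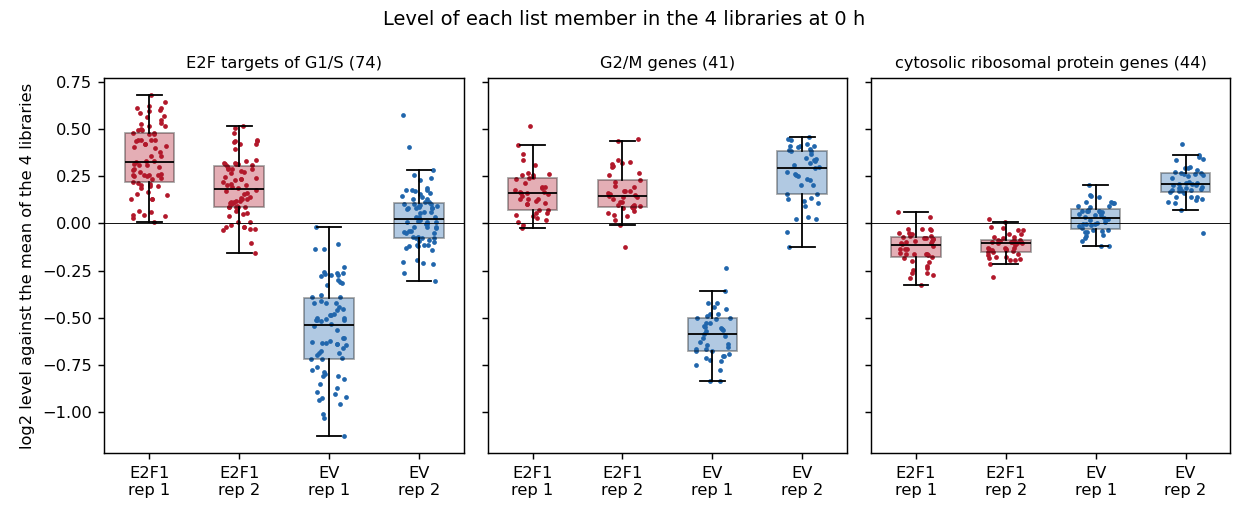
Level of each member of 3 gene lists (points) in the 4 starved libraries, as the log2 level against the mean of the 4, with boxes for the quartiles and whiskers to 1.5 times the interquartile range. E2F targets and G2/M genes were low in EV replicate 1, with medians of -0.54 and -0.59, while ribosomal protein genes were higher in both EV libraries.

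Among regulators of the G1 kinases, Cdk6, a partner of the D cyclins, was at 1560 and 1475 in the E2F1 line and 802 and 983 in the EV line (log2 difference 0.77, SE 0.14, adjusted p = 0.00143). Cdkn1a, the inhibitor p21 and a p53 target, was at 3066 and 2954 against 2128 and 2064 (log2 difference 0.52, SE 0.10, adjusted p = 0.00257), and Cdkn2c, an inhibitor of the cyclin D kinases, was lower at 5456 and 5039 against 6887 and 7380 (log2 difference -0.44, SE 0.08, adjusted p = 0.00201). The libraries of the 2 lines did not overlap in any of these genes, which the rule for naming list members required. Ccnd1, the main D cyclin of fibroblasts, was at 2064 and 2124 against 1724 and 2535 and did not pass, nor did the inhibitor Cdkn1b at 4616 and 5098 against 5312 and 5016. Over the list of D cyclins and kinase inhibitors, 3 of 14 members were called higher (21.4%) and 1 lower (7.14%). Over all autosomal genes these shares were 9.00% and 6.19%.

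The promoters of the E2F list were searched for 4 forms of the E2F site, TTTGGCGC, TTTCCCGC, TTTCGCGC and TTTGCCGC, on both strands. Forms can overlap each other on opposite strands. RefSeq promoter windows (GRCm38.p6, from 250 bases before to 50 after each gene's start) matched 8310 of the 10831 genes by symbol. A form was found in 21 of 60 matched list members (35%), in 375 of the 8310 (4.51%) and in 626 of all 27025 windows (2.32%). It was found in 13 of 29 matched list members called higher (44.8%) and in 8 of 31 not called (25.8%). Outside the list, 39 of 719 matched genes called higher held one (5.42%). A match describes the letters and does not show a site in use. Windows around the forms in 4 called members of the list are shown, to let the sites be read next to the values of these replication genes. The letters are 5′ to 3′ on the gene's own strand, from RefSeq, and capitals mark the matched forms on either strand.
Mcm6, chr1:128359722-128359841, - strand: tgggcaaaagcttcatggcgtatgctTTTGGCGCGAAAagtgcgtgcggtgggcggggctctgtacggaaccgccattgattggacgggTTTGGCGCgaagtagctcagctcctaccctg
Cdc6, chr11:98907987-98908046, + strand: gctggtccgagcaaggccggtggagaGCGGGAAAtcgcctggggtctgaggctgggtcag
Hells, chr19:38930902-38930961, + strand: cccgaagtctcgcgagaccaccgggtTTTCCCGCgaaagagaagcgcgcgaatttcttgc
Mcm5, chr8:75109330-75109393, + strand: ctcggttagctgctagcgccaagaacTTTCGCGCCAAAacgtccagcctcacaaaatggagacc
In Mcm6, with the largest log2 difference of the list, 3 matches lay upstream of the start, 2 of them overlapping. Mcm5, another helicase subunit, had 2 overlapping matches and was at 2991 and 2513 against 1375 and 2035 (log2 difference 0.71, SE 0.21, adjusted p = 0.0275), with adjusted p up to 0.274 over the alternatives.

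The largest differences between the starved lines were those of Tmem176b and Tmem176a, neighbouring genes for membrane proteins, which were higher in the E2F1 line. Tmem176b, on chromosome 6, 48833818 to 48841496, was at 2070 and 2432 in the E2F1 line and 25 and 49 in the EV line (log2 difference 5.96, SE 0.38, adjusted p = 4.05e-08). Tmem176a, on chromosome 6, 48840919 to 48847071, was at 1320 and 1765 in the E2F1 line and 19 and 23 in the EV line (log2 difference 6.12, SE 0.41, adjusted p = 5.42e-08). The annotated ranges of the pair overlap, and the use of strand in counting is not given in the sources used here, so their reads may be shared. Brinp3, a gene best known from the nervous system, was at 396 and 433 against 4 and 11 (log2 difference 5.74, SE 0.73, adjusted p = 8.23e-05).

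Serpine2, a secreted inhibitor of thrombin and plasminogen activators on chromosome 1, 79794197 to 79861180, was at 3505 and 3480 in the E2F1 line and 231 and 122 in the EV line (log2 difference 4.37, SE 0.41, adjusted p = 3.48e-06). Serpina3n, another serine protease inhibitor, was at 633 and 767 against 58 and 14 (log2 difference 4.55), and the matrix protease Adamts9 was at 180 and 230 against 17 and 2 (4.80). Smoc2, a secreted calcium-binding matrix protein, was at 1498 and 2312 against 199 and 104 (3.68), and Abi3bp, a matrix protein, was at 1061 and 787 against 115 and 55 (3.50). The lines did not overlap in any of these, which the rule for naming genes required. The lowest E2F1 value was several times the highest EV value in each.

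Genes for cytoplasmic and surface proteins were among them too. Arhgap28, a GTPase activating protein, was at 3433 and 3332 in the E2F1 line and 324 and 195 in the EV line (log2 difference 3.74, SE 0.36, adjusted p = 3.65e-06). Arc, an immediate early gene best known from synapses, was at 279 and 353 against 28 and 29 (log2 difference 3.42). Eml2, a microtubule-associated protein, was at 261 and 237 against 30 and 13 (3.58), and Sft2d2, a vesicle transport protein, was at 886 and 942 against 79 and 80 (3.51). The receptors Vldlr, for lipoproteins and reelin, and Scara5, for ferritin, were at 161 and 278 against 32 and 13 and at 532 and 904 against 80 and 80 (3.31 and 3.10). Nes, the intermediate filament nestin, was at 116 and 147 against 19 and 0 (4.88) and lost its call with only the 4 libraries compared (adjusted p = 0.0656 by limma). Of the other neural markers Tubb3 did not pass, and Map2, of the neuronal cytoskeleton, was lower at 216 and 250 against 690 and 503 (log2 difference -1.34, limma adjusted p = 0.00546). Map2 lost its call when 1 library was left out, with an adjusted p of 0.0575 without E2F1 replicate 1 and 0.0641 without EV replicate 1. All these differences are on the log2(normalized count + 1) scale, and those of Nes and Adamts9, with EV values of 0 and 2 in 1 library, were 3.24 and 3.74 with a pseudocount of 8.

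Fewer large differences were seen in the other direction. Sorcs2, a sorting receptor for neurotrophin signalling on chromosome 5, 36017180 to 36398139, was at 258 and 237 in the E2F1 line and 926 and 1150 in the EV line (log2 difference -2.06, SE 0.22, adjusted p = 1.96e-05). Its range overlaps that of Psapl1. Itga9, an integrin subunit on chromosome 9, 118606690 to 118901003, was at 180 and 191 in the E2F1 line and 681 and 697 in the EV line (log2 difference -1.89, SE 0.16, adjusted p = 9.47e-07). Tnfrsf11a, the RANK receptor of the tumour necrosis factor family on chromosome 1, 105780718 to 105847981, was at 50 and 24 in the E2F1 line and 204 and 206 in the EV line (log2 difference -2.53, SE 0.32, adjusted p = 6.70e-05). In all 3 genes both E2F1 values were below both EV values, which the rule for naming genes required.

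Msln, the surface protein mesothelin, was at 3602 and 2646 in the E2F1 line and 9661 and 8959 in the EV line (log2 difference -1.59). Pde8b, a cyclic AMP phosphodiesterase, was at 339 and 293 against 1034 and 991 (-1.68), and Rab6b, a small GTPase of vesicle traffic, was at 87 and 141 against 520 and 493 (-2.18). B4galnt4, a glycosyltransferase, and Abhd6, a lipid hydrolase, were at 139 and 80 against 340 and 346 and at 52 and 49 against 147 and 166 (-1.69 and -1.61). Ptprj, a receptor tyrosine phosphatase, had the largest difference downward at 22 and 2 against 82 and 104 (-3.49). Its size depends on the pseudocount of 1, as 1 E2F1 library was at 2. The adjusted p of Ptprj by limma was 0.075 with only the 4 libraries compared. Ccl17, a chemokine, was at 60 and 21 against 137 and 220 (-2.25) and lost its call without E2F1 replicate 2 (adjusted p = 0.0594 by limma).

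The calls of the remaining genes named downward were less stable. Ndst3, a heparan sulfate enzyme, was at 14 and 54 against 107 and 123 (log2 difference -2.01), and its adjusted p was 0.192 without E2F1 replicate 1 and 0.0523 without EV replicate 2. Pdzd2, a PDZ domain protein, was at 45 and 137 against 276 and 269 (-1.78), with 0.27 without E2F1 replicate 1, 0.0824 without EV replicate 1 and 0.0641 without EV replicate 2. Bc1, a small brain RNA made by RNA polymerase III, was at 265 and 300 against 633 and 1428 (-1.75), with 0.0709 without E2F1 replicate 1 and 0.112 without EV replicate 2. Angptl7, a secreted angiopoietin-like protein, was at 164 and 142 against 558 and 519 (-1.81) and lost its call when any 1 of the 4 libraries was left out (adjusted p from 0.0762 to 0.121). Its log2 difference stayed between -1.91 and -1.71 in these settings, where the smaller group also lowers the power of the test. Angptl7 lies inside the range of Mtor, so its reads are uncertain.

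**Figure D3:**
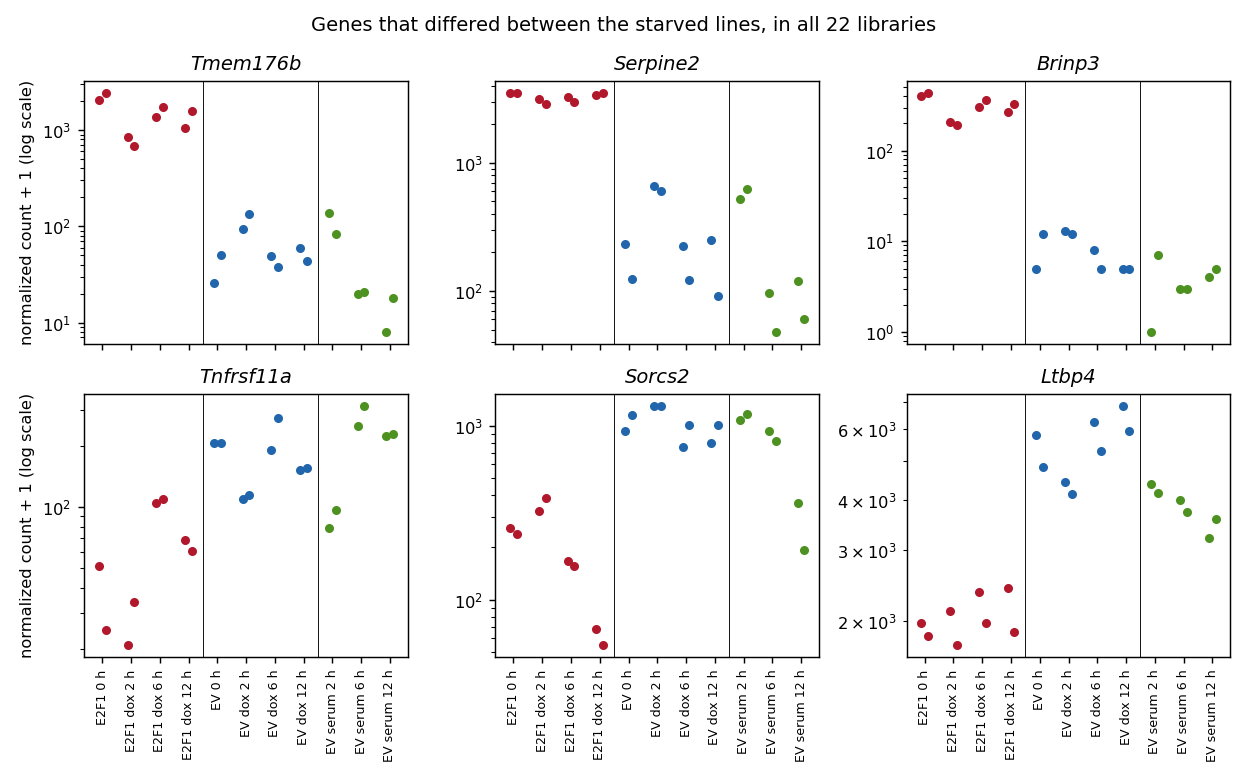
Normalized counts plus 1, on a log axis, of 6 genes that differed between the starved lines in all 22 libraries, with the E2F1 line in red, the EV line with doxycycline in blue and the EV line with serum in green. Serpine2 was at 231 and 122 in the EV line at 0 h and at 3505 and 3480 in the E2F1 line, and the 2 h libraries of the EV line lay above their own 0 h level.

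Matrix genes were called in both directions, and the share called lower was near that of all genes. Of 39 autosomal members 13 were higher and 2 lower in the E2F1 line (33.3% and 5.13%, beside 9.00% higher and 6.19% lower over all autosomal genes), while the median of the list was 0.11. Lama2, a laminin chain of basement membranes, was at 583 and 587 in the E2F1 line and 137 and 96 in the EV line (log2 difference 2.34, SE 0.36, adjusted p = 0.000343). Lum, the small proteoglycan lumican, was at 2168 and 1938 against 578 and 445 (log2 difference 2.01, SE 0.30, adjusted p = 0.000311), and Dcn, decorin of the same family, was at 28654 and 29876 against 15748 and 16934 (0.84). Postn, periostin of fibroblast matrix, was at 8195 and 7629 against 3668 and 1329 (1.84), with adjusted p of 0.0604 without E2F1 replicate 1 and 0.114 without EV replicate 2. The proteoglycan genes Aspn and Prelp were also called (1.79 and 1.66). Aspn had adjusted p of 0.124 without E2F1 replicate 1, 0.0567 without E2F1 replicate 2 and 0.238 without EV replicate 2, and Prelp of 0.173 without E2F1 replicate 1 and 0.19 without EV replicate 2. The range of Aspn overlaps Cenpp, so its reads are uncertain. The lower members were Col5a3, a fibrillar collagen chain at 1661 and 1368 against 4666 and 3881 (log2 difference -1.50, SE 0.17, adjusted p = 2.45e-05), and Col8a1. The list count was 8 without E2F1 replicate 1 or without EV replicate 2.

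The collagen genes Col1a1, Col1a2 and Col3a1, which make the main fibrils of fibroblast matrix, did not pass the test (log2 difference 0.04, -0.14 and -0.48). Col1a1, the main fibrillar collagen chain, was at 196151 and 175500 in the E2F1 line and 214313 and 151171 in the EV line (adjusted p = 0.905 by limma), with the EV replicates at both extremes. The growth factor receptor genes Pdgfra and Pdgfrb, which mark fibroblasts, did not pass either (-0.40 and 0.18). Vim, the fibroblast filament vimentin, was lower at 109261 and 121582 against 143598 and 172387 (-0.45), and lost the call after quantile normalization (adjusted p = 0.219), without E2F1 replicate 1 (0.0996) and without EV replicate 2 (0.0819). Over the 18 fibroblast markers in the table, 2 were called higher and 2 lower (11.1% each), with a median of -0.01. Over all autosomal genes 9.00% were called higher and 6.19% lower.

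Several smooth muscle and myofibroblast genes were higher in the E2F1 line. Of 13 autosomal members 5 were called higher (38.5%) and none lower, beside 9.00% higher and 6.19% lower over all autosomal genes, with a median of 0.12. Actg2, the enteric smooth muscle actin, was at 145 and 124 in the E2F1 line and 30 and 18 in the EV line (log2 difference 2.48, SE 0.36, adjusted p = 0.000262). Mylk, the myosin light chain kinase, was at 843 and 801 against 257 and 288 (log2 difference 1.59, SE 0.21, adjusted p = 0.0001), and Myl9, its myosin light chain, was at 423 and 646 against 188 and 241 (1.29). Acta2, the actin by which myofibroblasts are recognised, was at 11752 and 13298 against 6729 and 8028 (0.77). Lmod1, an actin nucleator of smooth muscle, was also called (1.03), with adjusted p of 0.353 without E2F1 replicate 2, 0.123 without EV replicate 1 and 0.113 without EV replicate 2. Other members such as Cald1 (0.12), Tpm1 (-0.25) and Cnn2 (-0.14) did not pass.

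Among matrix proteases and inhibitors, 4 of 22 members were called higher (18.2%) and 1 lower (4.55%). Over all autosomal genes these shares were 9.00% and 6.19%. Mmp9, a gelatinase, was at 4012 and 5298 in the E2F1 line and 1453 and 1288 in the EV line (log2 difference 1.75, SE 0.23, adjusted p = 0.0001). Mmp11, a stromal metalloprotease, was lower at 935 and 1130 against 1744 and 1479 (-0.64), with adjusted p of 0.176 without E2F1 replicate 1 and 0.144 without EV replicate 1, and its range overlaps Chchd10.

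Secreted inhibitors of growth factor signalling were called both ways, 4 of 17 higher (23.5%) and 5 lower (29.4%). Over all autosomal genes 9.00% were called higher and 6.19% lower. Dkk3, of the Dickkopf family, was at 2461 and 2106 in the E2F1 line and 479 and 301 in the EV line (log2 difference 2.58, SE 0.30, adjusted p = 3.10e-05). Ltbp4, which binds latent TGF-beta in the matrix, was lower at 1975 and 1834 in the E2F1 line and 5795 and 4839 in the EV line (log2 difference -1.48, SE 0.13, adjusted p = 1.77e-06), while its relative Ltbp2 was higher at 3281 and 4074 against 2358 and 1621 (0.90). The secreted Wnt inhibitors Sfrp2 and Sfrp1 went opposite ways, at 702 and 605 against 183 and 90 (2.33) and at 87 and 95 against 343 and 199 (-1.51). Sfrp2 had adjusted p of 0.0887 without E2F1 replicate 1, 0.0547 without E2F1 replicate 2 and 0.104 without EV replicate 2.

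Growth factors themselves were 4 higher and 4 lower of 31 (12.9% each), beside 9.00% higher and 6.19% lower over all autosomal genes. Igf1, insulin-like growth factor 1, was at 1648 and 1465 against 807 and 970 (0.81), with adjusted p of 0.0761 without E2F1 replicate 1 and 0.0731 without EV replicate 1, and Fgf7, a fibroblast-derived factor for epithelia, was lower at 10379 and 8373 against 14984 and 13266 (-0.60), with 0.0589 without E2F1 replicate 2. Of 42 receptors 8 were higher (19%) and 6 lower (14.3%). Ntrk3, the neurotrophin-3 receptor, was at 737 and 588 in the E2F1 line and 254 and 75 in the EV line (log2 difference 2.24, SE 0.43, adjusted p = 0.00205), and Ror1, a Wnt5a receptor, was at 352 and 408 against 183 and 132 (1.28). Mertk, a receptor for Gas6, was lower at 190 and 192 against 544 and 504 (log2 difference -1.45, SE 0.22, adjusted p = 0.000299), and its ligand gene Gas6 was higher at 3542 and 3490 against 1357 and 805 (log2 difference 1.75, SE 0.25, adjusted p = 0.00021). The range of Gas6 overlaps Tmem255b. Notch1 was lower at 443 and 456 against 884 and 751 (-0.86).

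Of 21 chemokine and cytokine genes 1 was higher (4.76%) and 2 were lower (9.52%), beside 9.00% and 6.19% of all autosomal genes. Cxcl12, the ligand of CXCR4, was at 4204 and 3999 in the E2F1 line and 1549 and 1191 in the EV line (log2 difference 1.59, SE 0.24, adjusted p = 0.000291). Guidance genes were called as often in either direction, 7 higher and 7 lower of 29 (24.1% each). The ephrin receptor Epha7 was at 410 and 278 against 76 and 93 (log2 difference 1.99, SE 0.30, adjusted p = 0.000291) and Epha4 at 1580 and 1853 against 906 and 695 (1.11), while the semaphorin Sema5a was lower at 439 and 316 against 787 and 1123 (-1.33). Of 22 cadherins and protocadherins 4 were higher (18.2%) and 2 lower (9.09%). They were led by Pcdh10, a protocadherin, at 213 and 213 against 48 and 40 (log2 difference 2.26, SE 0.34, adjusted p = 0.000299 by limma). In these 5 genes no E2F1 value overlapped an EV value, which the rule for naming genes required.

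Interferon-stimulated genes had 8 of 25 members called higher (32%) and none lower, beside 9.00% higher and 6.19% lower over all autosomal genes, with a median of 0.39. Parp14, an ADP-ribosyltransferase, was at 404 and 502 in the E2F1 line and 111 and 95 in the EV line (log2 difference 2.12, SE 0.35, adjusted p = 0.00058). Gbp2, a guanylate-binding protein, was at 1081 and 1333 against 626 and 651 (0.91), and Ddx58, the RNA sensor RIG-I, was at 1528 and 1837 against 874 and 973 (0.86). Isg15, a ubiquitin-like protein and a standard marker of the interferon response, was at 589 and 484 against 591 and 396 and did not pass (0.14). Dtx3l and Parp9, which form a complex and lie in overlapping ranges, were called together (0.72 and 0.68), but both lost the call when any 1 of the 4 libraries was left out (adjusted p from 0.0753 to 0.22 and from 0.0511 to 0.159). The list count fell to 4 without E2F1 replicate 1 or EV replicate 1 and to 3 without E2F1 replicate 2 or EV replicate 2, and it was 5 without all 2 h libraries.

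Antioxidant and detoxification genes had 8 of 29 members higher (27.6%) and 1 lower (3.45%), with a median of 0.29. Over all autosomal genes 9.00% were called higher and 6.19% lower. Against the mean of the 4 libraries the median member stood at 0.29 in E2F1 replicate 1 and -0.02 in E2F1 replicate 2. In the EV line it stood at -0.16 and -0.08. Without E2F1 replicate 1 the median difference was 0.06, with 16 members above 0 and 13 below. It was 0.40 without E2F1 replicate 2, and 0.22 and 0.21 without EV replicate 1 and 2. Aldh3a1, an aldehyde dehydrogenase, was at 575 and 508 in the E2F1 line and 112 and 128 in the EV line (log2 difference 2.17, SE 0.34, adjusted p = 0.000443). Adh7, which oxidises retinol, was at 1226 and 1088 against 427 and 429 (log2 difference 1.43, SE 0.18, adjusted p = 8.70e-05), and Nqo1, a quinone reductase and target of NRF2, was at 1603 and 1058 against 461 and 513 (log2 difference 1.42, SE 0.22, adjusted p = 0.000368). Mgst1, a microsomal glutathione transferase, and Aox1, an aldehyde oxidase, were called (2.11 and 1.29) with less support. The adjusted p of Mgst1 was 0.198 without E2F1 replicate 1, 0.0623 without E2F1 replicate 2, 0.0729 without EV replicate 1 and 0.126 without EV replicate 2, and that of Aox1 was 0.237 without E2F1 replicate 1, 0.0653 without E2F1 replicate 2 and 0.331 without EV replicate 2. The list count was 5 without E2F1 replicate 1 or EV replicate 2. Hmox1, haem oxygenase and another NRF2 target, was at 2216 and 1064 against 1389 and 1052 and did not pass.

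**Figure D4:**
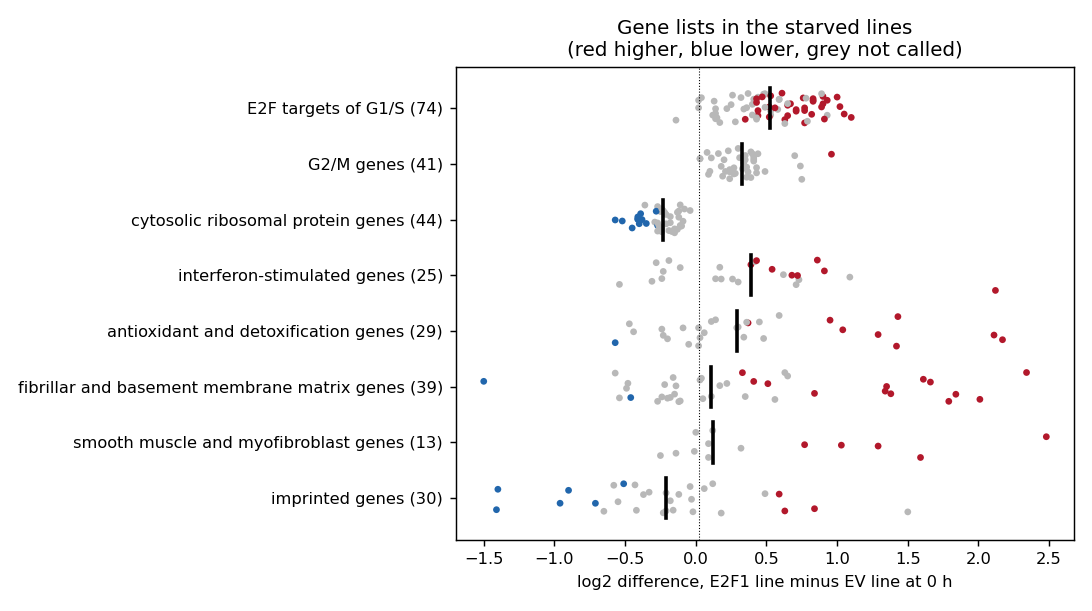
Log2 difference between the starved lines (x axis, E2F1 minus EV) for each autosomal member of 8 gene lists, with called members in colour, a bar at each list's median and a dotted line at the median of all autosomal genes, 0.02. The E2F targets have a median of 0.53, the ribosomal protein genes lie below 0, and imprinted genes lie on both sides.

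Ribosomal protein genes were lower in the E2F1 line by small amounts. Of 44 members 12 were called lower (27.3%, beside 6.19% of all autosomal genes) and none higher, all 44 were below 0, and the median was -0.23. Rps3, of the small subunit, was at 40612 and 40792 in the E2F1 line and 57251 and 63956 in the EV line (log2 difference -0.57, SE 0.10, adjusted p = 0.00126). Rpl7, of the large subunit, was at 50473 and 55477 against 67545 and 84794 (-0.52) and Rpsa, of the small subunit, at 68306 and 73163 against 88971 and 104976 (-0.45). The list made up 4.64% and 4.74% of all normalized counts in the E2F1 libraries and 5.21% and 5.8% in the EV libraries. Scaling touched the list: after quantile normalization 5 were called, the median was -0.12 and 6 members were above 0, and after scaling to equal totals the median was -0.19. Without E2F1 replicate 1 or EV replicate 2 the count was 1, with Rpl7 at adjusted p = 0.0969 and 0.105 and Rpsa at 0.139 and 0.146. Without E2F1 replicate 2 it was 6, with Rpsa at 0.0582. Ribosomal protein genes have many processed copies in the genome, so reads may be split between them.

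Of 30 imprinted genes 6 were called lower (20%) and 3 higher (10%), beside 9.00% higher and 6.19% lower over all autosomal genes, with a median of -0.21. Mirg, a non-coding RNA of the Dlk1-Dio3 domain, was at 1112 and 1133 in the E2F1 line and 3177 and 2796 in the EV line (log2 difference -1.41, SE 0.12, adjusted p = 1.77e-06). Rian, of the same domain on chromosome 12, was at 13478 and 15331 against 23913 and 23216 (log2 difference -0.71, SE 0.10, adjusted p = 0.000125). Meg3, another RNA of that domain, was at 19461 and 24915 against 51549 and 32620 (-0.90), with adjusted p of 0.0908 without E2F1 replicate 1 and 0.102 without EV replicate 1, and Dlk1, its protein-coding neighbour, was also lower (-0.51), with 0.147 without E2F1 replicate 1, 0.0662 without E2F1 replicate 2 and 0.219 without EV replicate 1. Asb4, which is imprinted on chromosome 6, was at 2325 and 2150 against 5117 and 6805 (-1.40), and Peg3, a zinc finger gene on chromosome 7, was at 4109 and 3770 against 8050 and 7256 (-0.96). H19, an abundant imprinted RNA, was at 1402 and 1057 against 626 and 296 and did not pass.

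Regulators of development split evenly, 8 higher and 8 lower of 54 (14.8% each). Hox genes had 1 higher (8.33%) and 2 lower (16.7%) of 12. Over all autosomal genes 9.00% were called higher and 6.19% lower. Hoxa5 was at 1264 and 1438 in the E2F1 line and 916 and 849 in the EV line (log2 difference 0.61, SE 0.12, adjusted p = 0.00198), in a range that overlaps Hoxa3. Hes1, a Notch target, was higher at 139 and 83 against 58 and 31 (1.32), with adjusted p of 0.142 without E2F1 replicate 1 and 0.115 without EV replicate 2. Gata6 was lower at 101 and 126 against 199 and 228 (-0.91), with 0.118 without E2F1 replicate 1 and 0.0745 without EV replicate 2. These genes pattern tissues in the embryo and keep regional identity in fibroblasts.

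Immediate early genes had 4 of 31 higher and 3 lower (12.9% and 9.68%), near the shares of all autosomal genes (9.00% and 6.19%). Besides Arc, Klf4 was higher at 2077 and 1931 against 1268 and 1053 (log2 difference 0.79, SE 0.15, adjusted p = 0.00191) and Klf2 was lower at 428 and 390 against 849 and 814 (-1.02), with adjusted p of 0.0511 without E2F1 replicate 2. The growth response factors Fos (128 and 70 against 145 and 91), Egr1 (4508 and 6762 against 3313 and 3708) and Myc (2399 and 2434 against 1723 and 1865) did not pass. FOXO and quiescence genes had 4 of 33 higher and 3 lower (12.1% and 9.09%), also near those shares. Pdk4, a kinase that holds back pyruvate oxidation, was lower at 3396 and 3299 against 4982 and 5154 (log2 difference -0.60, SE 0.09, adjusted p = 0.000264).

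Of 18 genes linked to E2F1-driven apoptosis, 2 were higher and 2 lower (11.1% each), near the 9.00% and 6.19% of all autosomal genes. Casp8, an initiator caspase, was at 1297 and 1168 against 728 and 781 (log2 difference 0.71, SE 0.12, adjusted p = 0.000595), and Bcl2l11, which codes for BIM, was lower at 898 and 992 against 1543 and 1328 (-0.60), with adjusted p of 0.0961 without E2F1 replicate 1 and 0.0951 without EV replicate 1. Of 27 p53 targets 5 were higher (18.5%) and 1 lower (3.7%), beside the same 9.00% and 6.19%. Besides Cdkn1a, Phlda3, an inhibitor of AKT, was at 6244 and 6232 against 4863 and 4582 (log2 difference 0.40, SE 0.08, adjusted p = 0.00329), and the death receptor gene Fas was at 454 and 509 against 261 and 191 (1.10), with 0.0699 without E2F1 replicate 2 and 0.0839 without EV replicate 2. YAP/TAZ targets had 4 higher and 2 lower of 25 (16% and 8%, beside 9.00% and 6.19% of all autosomal genes). ATF4 response genes had 5 of 30 higher (16.7%, beside 9.00% of all autosomal genes) and none lower with a median of 0.26. Against the mean of the 4 libraries their median member stood at 0.26 in E2F1 replicate 1, at 0.03 in E2F1 replicate 2 and at -0.11 and -0.16 in the EV line. Besides Vldlr, the called ATF4 genes were Trib3, Mthfd2, Aars and Shmt2, and without E2F1 replicate 1 their adjusted p by limma was 0.11, 0.391, 0.219 and 0.359. Sterol synthesis genes (3 of 30 higher, 10%) and glycolysis genes (3 of 26 higher, 11.5%) were near the 9.00% of all autosomal genes, with medians of 0.02 and -0.02. The called members were Hsd17b7, Srebf1 and Acaca, and Pfkp, Pfkm and Slc2a1, and all 6 lost the call without E2F1 replicate 1. Slc2a1, the glucose transporter GLUT1, was at 6060 and 5470 against 3947 and 3954 (0.54), with adjusted p of 0.0829 without E2F1 replicate 1.

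The differences were not spread evenly over the chromosomes. On chromosome 1, 206 of 655 genes were higher in the E2F1 line (31.5%) and 23 lower, and the median log2 difference was 0.24, a 1.18-fold level. Chromosome 1 held 6.05% of autosomal genes and 21.1% of those called higher, and outside it 7.56% of genes were called higher. The median was between 0.23 and 0.25 in each of the 4 pairings of an E2F1 with an EV library. It was 0.22 after quantile normalization and 0.28 after scaling to equal totals. In the libraries of later times, which do not enter the 0 h difference, it was 0.12, 0.18 and 0.20 at 2, 6 and 12 h of doxycycline. The number called higher was 98 without E2F1 replicate 1, 119 without E2F1 replicate 2, 121 without EV replicate 1 and 149 without EV replicate 2.

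With the genes of chromosome 1 split in order into 5 equal parts, the first part, up to position 53352752 (GRCm38), had a median of 0.07, and the others had 0.24, 0.26, 0.31 and 0.29. Serpine2, Brinp3, Sft2d2, Mcm6, Mcm3 and Nuf2 lie on this chromosome. Of the 34 called E2F targets 3 lie on it, as do 6.05% of all autosomal genes and 21.1% of all genes called higher. In other lists 4 of the 13 matrix genes called higher lie on it, 3 of the 7 guidance genes and 2 of the 4 YAP/TAZ targets. None of the 8 interferon-stimulated genes called higher does. Tnfrsf11a and Map2, also on chromosome 1, were lower.

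Chromosome 7 had 133 of 833 genes lower (16%, beside 6.19% of all autosomal genes) and 38 higher (4.56%), with a median of -0.10 over the whole chromosome. Most of the lower genes were in its distal part. In the fourth of 5 equal parts, from 96951505 to 126585817, 57 of 166 genes were lower and 2 higher, with a median of -0.28. In the last, up to 145324086, 52 of 166 were lower and none higher, with a median of -0.32. The first 3 parts had medians of -0.04, 0.01 and 0.08. At 2, 6 and 12 h the fourth part had medians of -0.19, -0.25 and -0.30, and the last -0.21, -0.28 and -0.28. Rps3 and Rps13 are ribosomal protein genes on this chromosome. B4galnt4 and Bc1, which were lower, lie in its last part, and Eml2, which was higher, lies in its first. The count of lower genes was 59 and 61 without E2F1 replicate 1 and 2, and 88 and 78 without EV replicate 1 and 2.

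Medians of 40 neighbouring genes gave the same picture. Of 1016 such blocks, 27 had a median of at least 0.25, all on chromosome 1, and 27 of at most -0.25, of which 23 were on chromosome 7, 2 on chromosome 9 and 2 on chromosome 1. Every one of these blocks kept its sign at 2, 6 and 12 h, in libraries that did not enter their choice. The sign also held in all 4 pairings of the 0 h libraries, but the blocks were chosen by the values of these same libraries. Over whole chromosomes, several others had medians further from 0 than that of chromosome 7. Chromosome 10 had 91 of 556 genes lower (16.4%), chromosome 12 had 56 of 404 (13.9%) and chromosome 9 had 79 of 626 (12.6%), each with a median of -0.14. Chromosome 18 had 54 of 305 genes higher (17.7%) and a median of 0.17. Neighbouring genes are not independent, and blocks that share genes overlap.

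**Figure D5:**
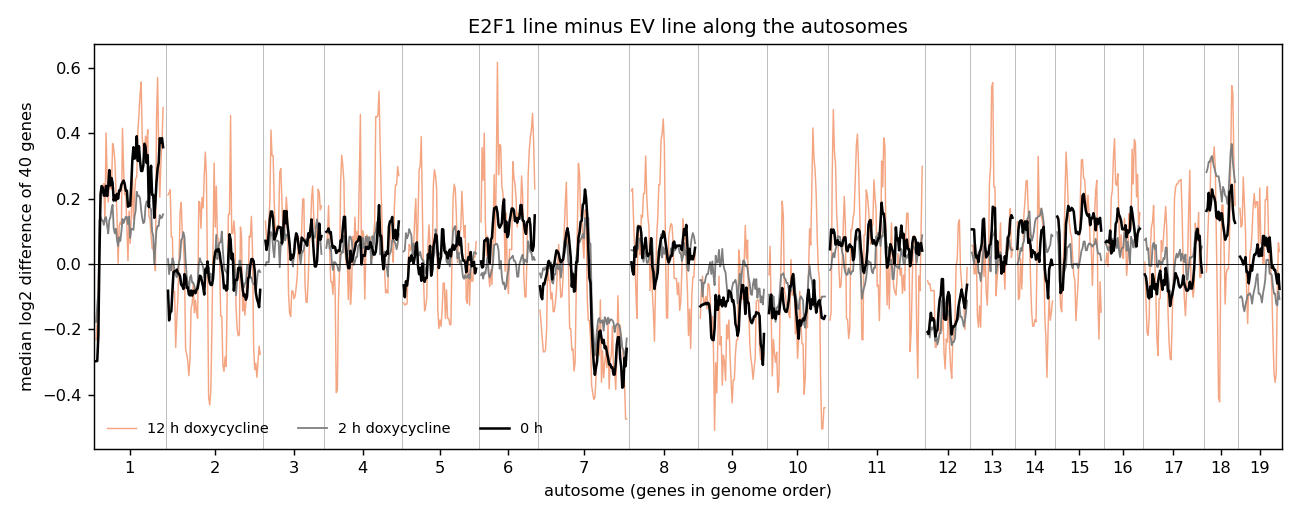
Median log2 difference (E2F1 line minus EV line) of 40 neighbouring autosomal genes in genome order, at 0 h (black), 2 h (grey) and 12 h (orange) of doxycycline, with chromosomes divided by lines. At 0 h the blocks of chromosome 1 lie mostly above 0 and those of distal chromosome 7 below, and the medians over these regions had the same sign at 2 and 12 h.

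The same line difference was then read at later times, whose libraries enter the 0 h calls only through the shared estimate of spread. After 2 h of doxycycline, 450 of the 1645 genes (27.4%) passed in the same direction and 4 in the opposite one, where 4.27% of all autosomal genes were called higher and 3.27% lower. By sign 1524 of the 1645 had the same direction. The genes called at both times were 55.1% of the 817 called at 2 h. Of the 145 genes at least 2-fold higher at 0 h, 126 were higher by value at 2 h and 45 passed. Of the 59 at least 2-fold lower, 58 were lower and 29 passed.

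At 6 and 12 h, 1167 (70.9%) and 1180 (71.7%) of the 1645 genes passed in the same direction and 91 and 156 in the opposite one. There the background was high, with 33.2% of genes called higher at 6 h and 27.1% called lower, and with 36.4% and 32.7% at 12 h. The E2F1 line had by then received doxycycline, as it had at 2 h, so the line and the induction of E2F1 cannot be told apart at any of these times. Of the 145 genes at least 2-fold higher at 0 h, 113 passed at 6 h and 93 at 12 h, and of the 59 lower genes 49 and 52.

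Named genes varied in this. At 12 h Serpine2 had 3400 and 3474 normalized counts in the E2F1 line against 247 and 90 in the EV line, a log2 difference of 4.52 beside 4.37 at 0 h. Ltbp4 was at 2411 and 1882 against 6843 and 5949 (-1.58 beside -1.48). Itga9, which differed by -1.89 at 0 h, differed by -0.25 at 6 h and -0.20 at 12 h. Mcm6 differed by 0.79, 2.97 and 2.89 at 2, 6 and 12 h. Lum, Postn and Myl9 (2.01, 1.84 and 1.29 at 0 h) differed by -0.05, 0.03 and -0.39 at 2 h. At 6 h they differed by 1.71, 1.58 and 0.51. Of the 39 matrix genes 2 were called higher and 6 lower at 2 h, with a median of -0.08 beside 0.11. Of the 25 interferon-stimulated genes none was called at 2 h, with a median of 0.16 beside 0.39. Over all autosomal genes 4.27% were called higher at 2 h and 3.27% lower. Among the 74 E2F targets 46 were called higher at 2 h and none lower, with a median of 0.71, beside 0.53 at 0 h. At 2 h both E2F1 libraries had list medians of 0.41 and 0.60 against the mean of the 0 h libraries, and the EV libraries -0.13 and -0.25, so that the EV replicates there lay closer together than at 0 h.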

How the data were processed

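The study sequenced RNA from 22 libraries of NIH/3T3 fibroblasts, of which the 4 at 0 h are compared here. Per the labels' protocols, polyadenylated RNA was sequenced as 150 bp paired-end reads. The submitters' processing notes name FastQC, Trimmomatic, HISAT2, featureCounts, DESeq2 and the build mm10, without versions or roles. The deposited table gives a whole-number value for each of 11208 genes and library, which its name calls normalized counts. These deposited values, scaled and rounded by the authors, were handled as a score, and no count test was used. Use of strand in counting is not given in the sources used here.

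A limma model (version 3.58.1, R 4.3.3) was fitted to log2(value + 1), with a mean for each of 11 groups over all 22 libraries (11 residual degrees of freedom, empirical Bayes with a mean-variance trend, two-sided). Benjamini-Hochberg adjustment was over all 11208 genes, with a threshold of 0.05. The gene model has no replicate term. The model was also run on simulated data for 11208 genes, of which 200 were changed in the 0 h comparison. Noise was normal and independent for each gene, with the same spread in all groups. There 85 of 100 genes with a 2-fold and 100 of 100 with a 4-fold change were called, and 12 unchanged genes were called. Replicates in which whole gene lists shift together were not simulated, so these rates need not hold for the real libraries.

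Named genes were the 15 largest differences in each direction among called genes whose higher line averaged 50 or more, with no overlap between lines, up to 5 such members of each of 35 gene lists, and a fixed set of 25 genes. Predicted models were only counted (18 higher, 37 lower), and some genes that met the rule are not reported here. Other members were named after their values were seen: Mcm2, Mcm5, Hells, Mybl2, Isg15, Hmox1, H19, Rian, Col5a3, Col8a1, Col1a2, Col3a1, Cald1, Tpm1, Cnn2, Tnnt2, Tubb3, Cd14 and Csf1r. The members and lists were chosen with earlier results of these data known. Lists are described by counts and medians, with no test. Results for some genes are not reported here. The alternatives were a pseudocount of 8, a mean of at least 500, quantile normalization, equal totals, a replicate block, only the 4 libraries compared, no 2 h doxycycline libraries, adjustment over autosomal genes, a 2-fold minimum and leaving out each of the 4 libraries. Leaving out all 2 h libraries or the serum libraries was chosen after seeing the data. Where a library is left out, the lone one of its group is assumed to vary like the other groups. Positions are from GENCODE M21 (GRCm38), in which all 11208 identifiers occurred, 10977 with the same version. A read value was accepted in the search of steps between low values, up to 600, only where its likelihood led clearly, which it did in all 4 libraries at 0 h. The median spread between replicates, read over genes of higher counts only, was above counting error in both lines.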

Additional observations from a re-analysis of the deposited data

Results flagged for a closer look

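The line difference at 2 h of doxycycline was tested against that at 0 h within the same limma model. The change passed in 15 autosomal genes (0.138%), and 847 had an unadjusted p under 0.05. All 15 changed in the direction opposite to their 0 h difference. The 2 comparisons share the 0 h libraries. Of the genes named in the report 5 were among them. The log2 change was -3.20 for Tmem176b (adjusted p = 0.0201) and -3.00 for Tmem176a (0.0483), the pair of overlapping membrane protein genes. It was -2.90 for Smoc2 (0.00375), the matrix protein gene, whose line difference went from 3.68 to 0.78. It was -1.76 for the chemokine gene Cxcl12 (0.0483) and 1.34 for the imprinted gene Asb4 (0.0201), whose line differences at 2 h were -0.17 and -0.06.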

How the results depend on the processing

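With only the 4 libraries compared, 633 genes were called, 378 higher and 255 lower, with 6 E2F targets, 1 ribosomal protein gene, 92 higher genes on chromosome 1 and 45 lower on chromosome 7. With a 2-fold minimum there were 204 (145 higher, 59 lower), with 3 E2F targets, 1 interferon-stimulated gene, no G2/M or ribosomal protein gene (0 each), and 28 and 7 genes on chromosomes 1 and 7. Leaving out each library gave 666 to 1205 genes (377 to 781 higher, 289 to 424 lower), 4 to 47 E2F targets, 0 to 5 G2/M genes, 1 to 10 ribosomal protein genes, 3 to 4 interferon-stimulated genes, 8 to 13 matrix genes, 4 to 5 smooth muscle genes, 5 to 6 antioxidant genes, 98 to 149 genes on chromosome 1 and 59 to 88 on chromosome 7. Deviations of libraries with the same replicate number correlated by 0.092 between the 0 h groups, and over 0.1 in 18 of 55 pairs of groups, so the numbers were not taken to pair libraries. The replicate block gave 1795 genes (1042 higher, 753 lower), 2 G2/M genes and 19 ribosomal protein genes. G2/M genes were also 2 under quantile normalization, equal totals and without serum libraries, and ribosomal protein genes 5 under quantile normalization. Interferon-stimulated genes were 5 with a mean of at least 500 and without 2 h doxycycline or all 2 h libraries, and matrix, smooth muscle and antioxidant genes 8, 2 and 5 with that mean, where fewer genes are tested. The change from 0 to 2 h was called in 5 genes with that mean, 47 under quantile normalization, 28 with the replicate block and 48 without serum libraries. Uncalled genes changed sign: E2f1 (-0.02 under quantile normalization, -0.01 to 0.05 when a library was left out), Rbl2 (-0.11 to 0.29), Ccnd1 (-0.04 under quantile normalization, -0.28 to 0.28, and -0.02 without E2F1 replicate 2), Cdk1 (-0.40 to 0.46, and -0.11 without E2F1 replicate 1), Mki67 (-0.35 to 0.53), Fos (-0.71 to 0.15, and 0.06 without EV replicate 1) and Col1a1 (-0.21 to 0.30, and -0.04 without E2F1 replicate 1). Of 150 called named genes 66 kept the call under every setting run, 82 lost it when a library was left out, and 0 changed direction. In these 150 genes the lines did not overlap, mostly by the rule for naming genes. Leaving out a library could therefore not change their direction. The cause of the shifts between settings was not tested.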
